A study of Sus scrofa with 12 samples.

Results

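Levels and splice forms of 8 genes that control alternative splicing in muscle were examined in the loin of Iberian pigs, out of 28195 genes annotated on the pig chromosomes. The genes were chosen by name and not by any measured value, though earlier results of these data were known: *RBM20*, *RBM24*, *MBNL1*, *MBNL2*, *RBFOX1*, *RBFOX2*, *CELF1* and *CELF2*. The data were RNA-seq transcript assemblies of the *Longissimus dorsi* from 12 purebred Iberian castrated males, 1 library per animal, which had been fattened outdoors on acorns and grass. The 6 pigs of the Tough group and the 6 pigs of the Tender group came from the opposite ends of the breeding values for shear force, the force needed to cut cooked loin, so the gap between the groups in that trait was set by the selection. Shear force was 7.32 to 10.6 kg/cm2 in the Tough group and 2.18 to 3.43 kg/cm2 in the Tender group. No pair of these animals shared a parent by the selection the study describes. Slaughter year and sequencing lane are not in the labels, so their part could not be examined, and 1 further Tender animal of the study was not analysed here.

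As background, the proteins of these genes bind pre-mRNA near exons and decide whether an exon is kept in the messenger. RBM20 keeps parts of the titin messenger out of the spliced product in striated muscle, and RBM24 favours the inclusion of muscle exons. The muscleblind proteins MBNL1 and MBNL2 bind repeats of the kind UGCU and drive the change from fetal to adult splice forms. RBFOX1 and RBFOX2 bind the letters TGCATG in introns beside their target exons, and CELF1 and CELF2 bind GU-rich RNA and often act against the muscleblind proteins.

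In the Sscrofa11.1 build the genes lie on 8 different chromosomes. They are at chr14:121058896-121269824 on the plus strand (*RBM20*), chr7:13126518-13139504 on the plus strand (*RBM24*), chr13:92491778-92696235 on the plus strand (*MBNL1*), chr11:66481923-66641653 on the plus strand (*MBNL2*), chr3:34938703-37209772 on the minus strand (*RBFOX1*), chr5:11633523-11905325 on the plus strand (*RBFOX2*), chr2:15066518-15161478 on the plus strand (*CELF1*) and chr10:60504925-60867631 on the minus strand (*CELF2*). *RBFOX1* spans 2271 kb and *RBM24* 12.99 kb, and non-coding parts make up 66.6% to 91.5% of their annotated exonic bases. The annotation gives 1 transcript for *RBM20* and for *RBM24* and 17 to 50 for the other members. A long non-coding RNA gene on the opposite strand overlaps the first bases of *RBM24*, and the strand of transcripts was inferred from splice sites.

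The exons on which the results below turn are shown first, 5′ to 3′ on the strand of the gene. An internal exon of *RBM24* that the NCBI annotation lacks was assembled in 12 of 12 libraries at chr7:13130616-13130728, and its 113 bases lie between an AG and a GT as splice sites do. Its start and its end are given with exon bases in capitals and intron bases in lower case.
RBM24, start of the exon (chr7:13130608-13130637): cctgacagGGCTCGTATACAGTTAAGCTAA
RBM24, end of the exon (chr7:13130721-13130750): CTCAGATGgtgattaacgatgcatggatgt
The first of these lines ends with TAA, the first stop codon in the frame of the annotated protein, at base 20 of the exon. With the exon the reading frame held 122 codons, against 236 without it, and the stop lay 91 bases before the next exon junction. The letters tgcatg, searched on the strand of the gene only, begin at base 12 of the intron after the exon. Within the 200 intron bases after an exon these letters occurred at 9.27% of the 1424 annotated alternative exons scored below and at 5.08% of 63944 exons included in every transcript of all 12 libraries.

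Paired exons of the muscleblind genes come next, chosen because both genes have exons of 36 and of 54 bases with like sequence, and the genes differed in their use of the shorter one. Capitals mark the bases that differ between the paralogs.
MBNL1, 36 bases, chr13:92686302-92686337: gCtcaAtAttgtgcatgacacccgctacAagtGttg
MBNL2, 36 bases, chr11:66612883-66612918: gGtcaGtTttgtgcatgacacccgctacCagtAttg
MBNL1, 54 bases, chr13:92676882-92676935: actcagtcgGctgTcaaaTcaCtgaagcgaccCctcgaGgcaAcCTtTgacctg
MBNL2, 54 bases, chr11:66604398-66604451: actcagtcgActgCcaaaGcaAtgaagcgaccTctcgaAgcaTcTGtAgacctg
The 36-base exons were identical at 31 of 36 bases and the 54-base exons at 44 of 54 bases. The 54-base exon is known for a part of the nuclear localization signal of the muscleblind proteins. All 4 exons are coding and are whole multiples of 3 bases.

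The RBFOX genes hold neighbouring exons of 40 and 43 bases, of which the first is known as the neuronal and the second as the muscle form. Capitals again mark differences between the paralogs.
RBFOX1, 40 bases, chr3:34997909-34997948 (minus strand): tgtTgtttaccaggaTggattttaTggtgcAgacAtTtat
RBFOX2, 40 bases, chr5:11887743-11887782: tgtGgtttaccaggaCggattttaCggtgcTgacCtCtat
RBFOX1, 43 bases, chr3:34991190-34991232 (minus strand): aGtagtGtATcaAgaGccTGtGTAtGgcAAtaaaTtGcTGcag
RBFOX2, 43 bases, chr5:11890802-11890844: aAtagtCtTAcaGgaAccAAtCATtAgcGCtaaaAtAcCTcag
The 40-base exons were identical at 34 of 40 bases and the 43-base exons at 25 of 43 bases. Another exon of *RBFOX1*, of 53 bases, was the only one of that gene spliced in both ways here.
RBFOX1, 53 bases, chr3:34966209-34966261 (minus strand): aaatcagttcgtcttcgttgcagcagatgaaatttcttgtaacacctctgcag

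All 8 genes were measured and passed the filter of a mean above 0.5 FPKM, the authors' unit of fragments scaled by transcript length and library size. Levels are compared between genes per coding base, a scale that counts every transcript on the strand of a gene by its coding bases and was added after the data were seen. The reason was that 2 members were listed at 0 in Tender 6 on the first scale, where a transcript counts for a gene if 50% or more of it falls in annotated exons. In that library the last exon assembled for *MBNL1* had 9384 bases and that for *RBM24* 6550 bases, and both ran past the annotated 3′ end. Per coding base *RBM24* stood at 12.6 FPKM and *MBNL1* at 7.53 FPKM in Tender 6. Read counts were not in the files, so depth is given as the coverage that 1 FPKM stood for, 6.54-fold in Tender 4 to 10.2-fold in Tough 6.

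*RBM24* and *MBNL1* had the highest levels per coding base, and *RBFOX2* the lowest. *RBM24* averaged 23.7 ± 8.77 FPKM (SD, n = 12) and exceeded 86.7% of the 9611 genes tested on that scale. The means ± SD (n = 12) of the others were 19.4 ± 9.48 FPKM for *MBNL1*, 11.6 ± 3.32 FPKM for *CELF1*, 7.13 ± 1.90 FPKM for *RBFOX1*, 6.17 ± 1.39 FPKM for *RBM20*, 5.17 ± 2.18 FPKM for *MBNL2*, 5.09 ± 1.28 FPKM for *CELF2* and 2.90 ± 0.995 FPKM for *RBFOX2*. Cufflinks coverage behind these values ran from 12.02-fold for *RBFOX2* in Tender 2 to 327-fold for *MBNL1* in Tough 2. Of the 7 pairs of neighbours in this order, 3 differed in an exact sign-flip test over the 12 libraries, two-sided and adjusted over the 7 pairs. *MBNL1* was above *CELF1* in 10 of 12 libraries (adjusted p = 0.00911, exact). *CELF1* was above *RBFOX1* in 10 of 12 (adjusted p = 0.00911, exact), and *CELF2* above *RBFOX2* in 10 of 12 (adjusted p = 0.00911, exact). The other 4 pairs did not differ beyond their spread, with adjusted exact p from 0.246 for *RBM24* over *MBNL1* to 0.930 for *MBNL2* over *CELF2*.

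On the first scale, which divides by the whole annotated exonic length, *RBM24* stood above *MBNL1* (adjusted p = 0.0171, exact) and *MBNL2* above *RBFOX2* (adjusted p = 0.00342, exact), and *CELF2* was last with a mean of 1.32 FPKM. The means of *CELF2* and *RBFOX2* were in the opposite order there without a difference beyond the spread (adjusted p = 0.448, exact). *CELF2* and *RBFOX2* have the longest annotated exonic sequence of the 8 genes, 18068 and 20786 bases.

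**Figure D1:**
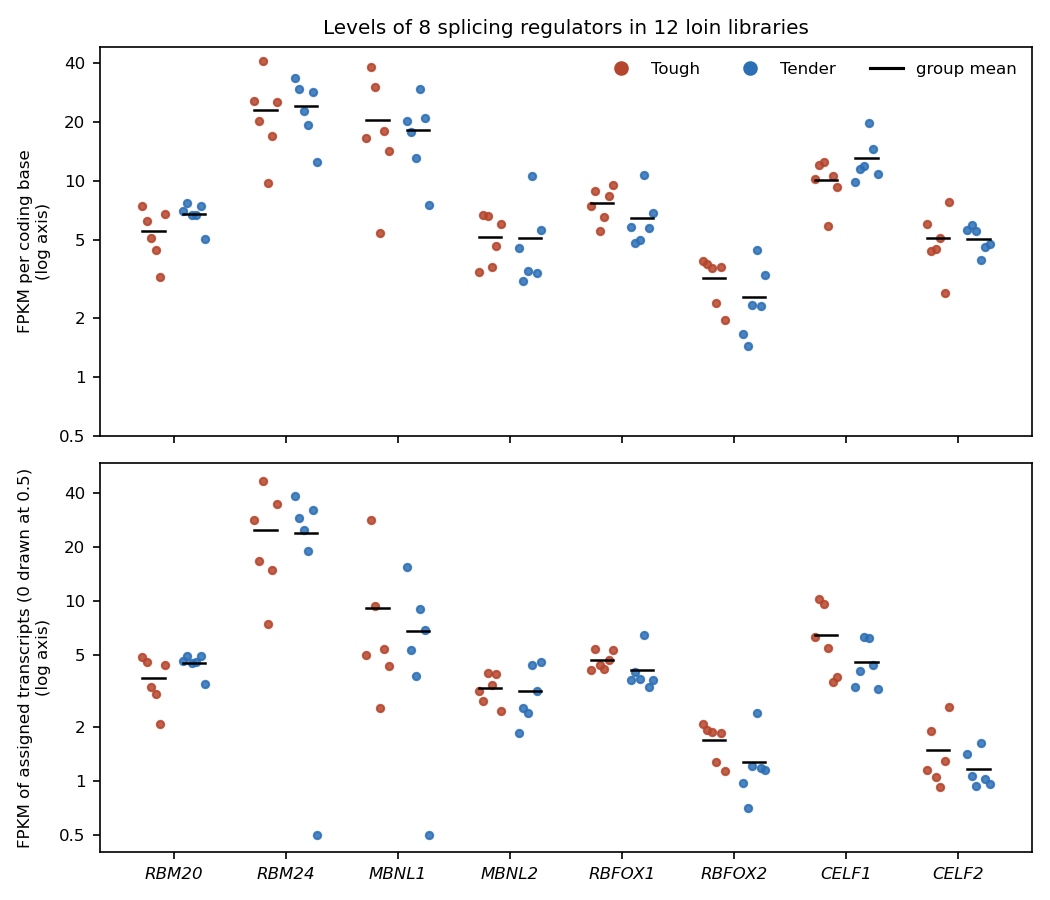
Levels of the 8 genes in each of the 12 libraries on a log axis, per coding base (upper panel) and from assigned transcripts (lower panel, where the 2 values listed at 0 are drawn at 0.5 FPKM). Each point is 1 animal and each bar a group mean; the ranges of the Tough and Tender groups overlapped for all 8 genes on both scales.

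*RBM24*, per coding base, had a lowest, median and highest level of 9.81, 22.8 and 40.9 FPKM in the Tough group and 12.6, 25.5 and 33.4 FPKM in the Tender group. On this scale Tough 4 was the lowest and Tough 3 the highest of all 12 libraries. In Tough 2, Tough 4, Tough 5 and Tender 4 the last *RBM24* exon assembled had 110 to 113 bases, against 1435 or more elsewhere. There the level per coding base fell below the summed FPKM of the forms with and without the unannotated exon. In Tough 4 these were 9.81 and 15.2 FPKM. By that sum Tender 6 was the lowest library at 12.6 FPKM and Tough 3 the highest at 35.6 FPKM. *RBM20* had 3.26, 5.68 and 7.45 FPKM in the Tough group and 5.06, 6.87 and 7.73 FPKM in the Tender group. Its 2 groups overlapped, with Tough 5 the lowest library and Tender 2 the highest.

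*MBNL1* had 5.41, 17.4 and 38.1 FPKM in the Tough group and 7.53, 19.1 and 29.7 FPKM in the Tender group, and Tough 2 and Tough 4 were the 2 ends of the range. Tough 4 and Tender 6 were the lowest libraries, at 5.41 and 7.53 FPKM. Their last *MBNL1* exon assembled had 9184 and 9384 bases, against 30 to 3327 bases elsewhere. The part of these long exons in the levels and their spread was not tested. The coefficient of variation of *MBNL1* over the 12 libraries was 48.99%, against a median of 28.8% over the 9611 genes of that scale. *MBNL2* had 3.43, 5.36 and 6.75 FPKM in the Tough group and 3.11, 4.04 and 10.7 FPKM in the Tender group. Tender 4 stood apart from the other 5 Tender libraries, whose highest was 5.60 FPKM.

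*RBFOX1* had 5.55, 7.91 and 9.58 FPKM in the Tough group and 4.86, 5.81 and 10.7 FPKM in the Tender group. Tender 4 was again the highest, while the other 5 Tender libraries lay between 4.86 and 6.85 FPKM. *RBFOX2* had 1.97, 3.63 and 3.92 FPKM in the Tough group and 1.44, 2.31 and 4.44 FPKM in the Tender group, with the same library on top. The median-of-ratios scaling factor of Tender 4 was 1.29, the largest of the 12, and after division by it *RBFOX1* stood at 8.28 FPKM per coding base.

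*CELF1* had 5.91, 10.4 and 12.5 FPKM in the Tough group and 9.88, 11.8 and 19.8 FPKM in the Tender group, from Tough 4 to Tender 4. *CELF2* had 2.69, 4.80 and 7.84 FPKM in the Tough group and 3.96, 5.17 and 5.96 FPKM in the Tender group, and Tough 5 and Tough 6 were the lowest and the highest of all libraries. The coefficients of variation were 22.5% for *RBM20*, 25.1% for *CELF2*, 26.6% for *RBFOX1* and 28.6% for *CELF1*, all below that median.

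The comparison of the Tough with the Tender group called none of the 8 genes. A call by limma needed an adjusted p up to 0.10, an unadjusted p up to 0.05 and 1.5-fold, and 0% of the 9019 tested genes were called in each direction. No member reached an unadjusted p of 0.05 in this fit. Over all genes 224 had such a p, 0.71% higher in the Tough and 1.77% higher in the Tender group, and the smallest adjusted p was 0.652. The exact permutation test over all splits of the 12 animals called 0 genes too, with 222 at an unadjusted p of at most 0.05. From assigned transcripts 7 of the 8 members had a higher mean log2 level in the Tough group, beside 39.7% of all tested genes and 60.3% leaning to the Tender group, and their median log2 fold change was 0.27 beside -0.04. Per coding base 4 of 8 leaned that way, beside 38.3% of all genes and 61.7% the other way. On that scale 0 of 8 had an unadjusted p of at most 0.05, beside 0.77% and 2.26% of all genes. The ranges of the groups overlapped for all 8, and failed to do so for 0.0222% (higher in Tough) and 0.0776% (higher in Tender) of genes from assigned transcripts and 0.0208% in each direction per coding base.

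On the log2(FPKM + 0.5) scale, Tough minus Tender, *RBM20* had a log2 fold change of -0.29 ± 0.18 (SE) from assigned transcripts and -0.30 ± 0.18 (SE) per coding base, lower in the Tough group on both (unadjusted p = 0.133 and 0.126, limma). Without Tough 5 these were -0.15 and -0.17. *RBFOX1* and *RBFOX2* leaned to the Tough group on both scales. The log2 fold change of *RBFOX1* was 0.19 ± 0.15 (SE) with a 95% interval of -0.13 to 0.52, and that of *RBFOX2* was 0.34 ± 0.20 (SE) with an interval of -0.09 to 0.77. Without Tender 4 they were 0.32 and 0.49, with unadjusted p of 0.00934 and 0.00793 and adjusted p of 0.907 and 0.907 (limma). With all libraries *RBFOX2* had an unadjusted p of 0.0210 after median-of-ratios and 0.0334 after upper-quartile scaling, where *RBFOX1* had 0.0973 and 0.0847 (limma). With array weights *RBFOX1* had 0.0139 and *RBFOX2* 0.0124, each with an adjusted p of 0.673 (limma). *MBNL2* had 0.09 ± 0.20 (SE) from assigned transcripts and 0.09 ± 0.27 (SE) per coding base.

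For 3 members the direction depended on the scale. *CELF1* had 0.39 ± 0.27 (SE) from assigned transcripts and -0.36 ± 0.20 (SE) per coding base, *RBM24* 0.57 ± 0.95 (SE) and -0.12 ± 0.31 (SE), and *CELF2* 0.21 ± 0.19 (SE) and -0.04 ± 0.20 (SE). Relative to the annotated 3′ end, *CELF1* assemblies reached -7109 to -7084 bases in Tough 1 to 4 and Tender 3, and -10046 to -9945 bases elsewhere. From assigned transcripts *CELF1* stood at 5.45 to 10.2 FPKM in the former libraries and 3.23 to 6.23 FPKM in the latter. The part of these ends in its direction was not tested. The value of *RBM24* from assigned transcripts, and that of *MBNL1* (0.54 ± 0.76 (SE)), turned on the zero in Tender 6. Without that library they were -0.40 and -0.11, and *MBNL1* was at 0.15 without Tough 2. *MBNL1* per coding base had 0.05 ± 0.41 (SE). The 95% intervals per coding base ran from -0.79 to 0.54 for *RBM24* and from -0.84 to 0.94 for *MBNL1* and a level 1.5-fold lower in the Tough group lay inside both. A level 1.5-fold higher lay inside that of *MBNL1* but not that of *RBM24*. The *RBM24* values per coding base include Tough 2, Tough 4, Tough 5 and Tender 4, where the last exon assembled was short. The part of these short exons in the difference and its interval was not tested. For *RBM20* per coding base the interval was -0.69 to 0.10 and for *CELF1* -0.79 to 0.08.

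**Figure D2:**
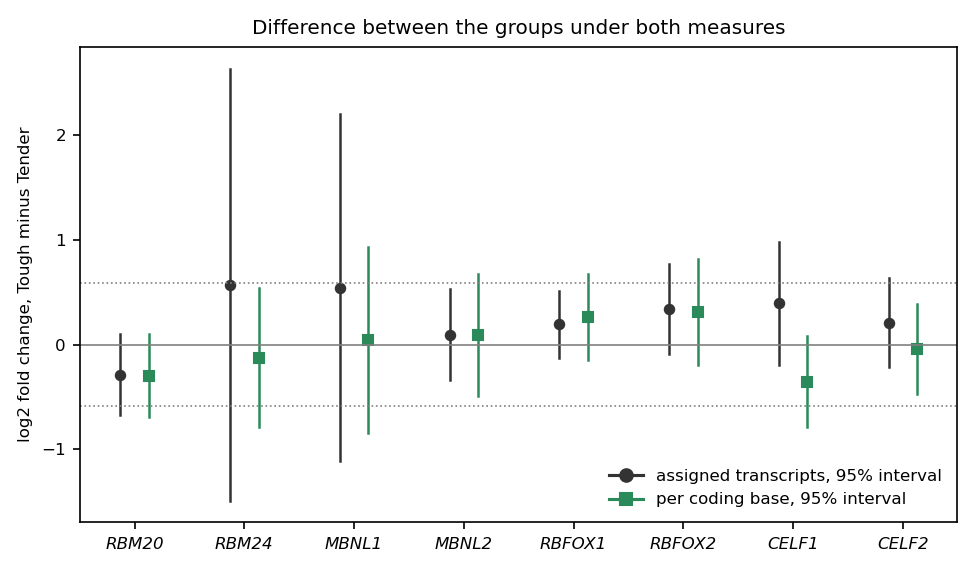
Log2 fold change of each gene, Tough minus Tender, from assigned transcripts (circles) and per coding base (squares), with the 95% interval of limma as a vertical line and dotted lines at a 1.5-fold change. All 16 intervals include 0, and those of *RBM24* and *MBNL1* from assigned transcripts are the widest.

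The exon of *RBM24* that the annotation lacks was the 1 feature, among the levels and scored exons of the 8 genes, on which the groups did not overlap. Both forms, with and without it, were assembled in every library, and the share of *RBM24* transcripts with the exon was 30.2%, 38.8%, 31.3%, 28.2%, 33.98% and 29.7% in Tough 1 to 6. In Tender 1 to 6 it was 22.1%, 22.8%, 21.5%, 27.1%, 17.1% and 25.2%. Each Tough library was therefore above each Tender library, and the closest were Tough 4 and Tender 4. The mean was 32.04% ± 3.82 (SD, n = 6) in the Tough group and 22.6% ± 3.42 (SD, n = 6) in the Tender group, a difference of 9.41 percentage points.

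The exact permutation p was 0.00216, the smallest that 6 against 6 animals can give. Scored together with all exons that had both forms in at least 6 libraries, 1584 in all of which 160 were not annotated, its adjusted p was 0.490, and no exon passed 0.05. Groups without overlap and higher in the Tough group were found for 0.379% of these exons, and higher in the Tender group for 0.253%. An unadjusted p of at most 0.05 was reached by 2.46% and 2.59%. The exon was scored after it had been seen in the assemblies. In Tender 4 a further transcript held the exon within a longer one that retained the intron before it. Counted as included, it raised Tender 4 to 40.5%, the highest of all libraries, and the difference became 7.18 points with an exact p of 0.0823.

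The form with the exon was at a lowest, median and highest level of 4.28, 8.35 and 12.2 FPKM in the Tough group and 3.17, 5.75 and 7.38 FPKM in the Tender group (exact permutation p = 0.0584 on log2 values). The form without it was at 10.9, 17.8 and 24.5 FPKM and at 9.41, 20.3 and 26.1 FPKM (exact permutation p = 0.710). The ranges of both forms overlapped between the groups. Within each library the forms started and ended at the same bases.

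**Figure D3:**
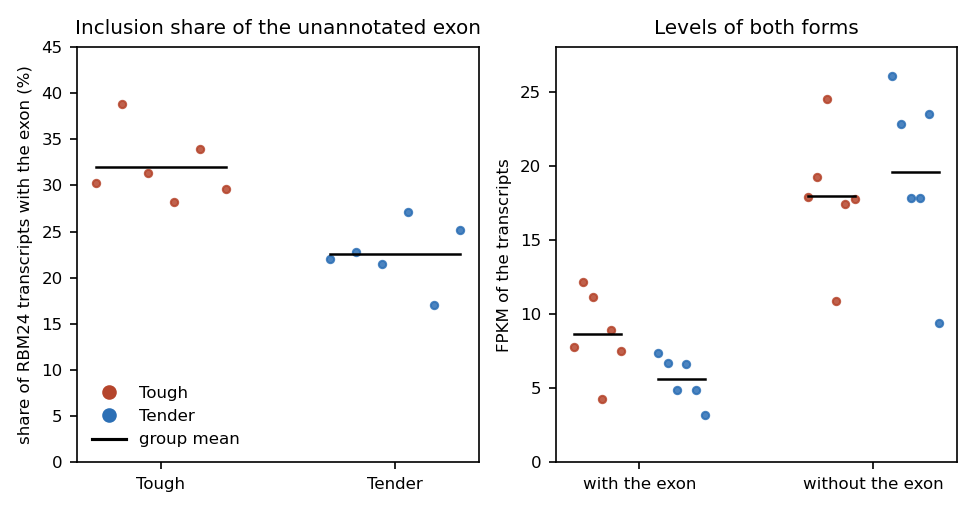
Left, share of *RBM24* transcripts that include the unannotated exon, in percent, 1 point per animal; right, the FPKM of the forms with and without it. Bars are group means. The 6 Tough libraries lie at 28.2% and above and the 6 Tender libraries at 27.1% and below, while the levels of both forms overlap.

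Other features of the animals and libraries also moved with the groups. The study reports a lower intramuscular fat content in its Tough group than in its Tender group, and the part of fat was not tested here. All 8 slow fibre genes tested had lower means in the Tough group, with 0 called, and their summed level was 4463 to 9737 FPKM in the Tough and 7075 to 12350.0 FPKM in the Tender group (exact permutation p = 0.0433, not adjusted). The summed red blood cell genes *HBB* and *ALAS2* did not overlap, at 124 to 206 FPKM against 238 to 351 FPKM, and *HBB* carried nearly all of that sum, where 0.0776% of all tested genes did not overlap in that direction. The part of fibre type or of blood in the differences of the splicing regulators was not tested, and in bulk muscle fewer cells of a type and less RNA per cell cannot be told apart. Of the fibre genes that mark skeletal muscle 15 of 15 had assigned transcripts, while the heart genes *NPPA* and *NPPB* and the neuronal *SNAP25* were listed at 0 in all 12 libraries. In the same list of heart and neuronal genes *TNNI3* lay between 0.296 and 1.46 FPKM and passed the filter. There *SYT1* was listed at 0 in 11 libraries and *RBFOX3* in 8, and *MYH6* was not annotated. A listed 0 does not show that a gene is absent, since *CKM*, the creatine kinase of muscle, was also listed at 0 in 7 libraries. Endothelial genes leaned to the Tender group in 6 of 6, where 60.3% of all tested genes did. Fibroblast genes leaned to the Tough group in 6 of 6, where 39.7% of all tested genes did, and 0 were called in either list. Smooth muscle genes leaned the same way in 5 of 5 with 0 called, but *DES*, which muscle fibres also express, was listed at 0 in 5 libraries and had a log2 fold change of -0.12 per coding base. Of the adipocyte, macrophage, lymphocyte and Schwann cell lists 0 genes were called. The lymphocyte genes *CD79A* and *MS4A1* were listed at 0 in all 12 libraries, while *CD4* lay between 0.310 and 1.21 FPKM. The other lymphocyte genes were listed at 0 in 1 library (*PTPRC*), 2 (*CD3E*), 6 (*CD2*) and 9 (*CD8A*). *ADIPOQ*, the defining adipocyte gene, was also listed at 0 from assigned transcripts but lay between 1.12 and 8.17 FPKM per coding base.

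The splice forms of the other members were read from the share of transcripts, weighted by FPKM, that include an annotated internal exon. Low shares are not resolved in such assemblies: of 12982 shares strictly between 0% and 100% over all scored exons, 12 were below 10%. Exons were tested where both forms were assembled in at least 6 libraries, and this held for 1424 of 190975 annotated internal exons, 6 of them in 3 members. None of the 6 passed an adjusted p of 0.05 (all exons, 0% in each direction), and none had an unadjusted exact p of at most 0.05 (all exons, 2.39% higher in the Tough and 2.81% higher in the Tender group). The smallest adjusted p of all was 0.514.

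The 36-base exon was spliced both ways in *MBNL1* and never assembled in *MBNL2*. In *MBNL1* both forms were present in 12 of 12 libraries, at 30.02%, 76.3%, 49%, 68.5%, 23.4% and 74.7% in Tough 1 to 6 and 31.3%, 59.4%, 52.9%, 71.3%, 75.3% and 48.4% in Tender 1 to 6. The means were 53.7% ± 23.1 (SD, n = 6) in the Tough group and 56.4% ± 16.1 (SD, n = 6) in the Tender group (difference -2.78 points, exact p = 0.797, adjusted p = 0.978), and the groups overlapped over nearly their whole range. In *MBNL2* the share was 0% in all 12 libraries. The 54-base exon of *MBNL1* was included in 3 libraries, at 21.6% in Tough 1, 25.3% in Tough 6 and 21.4% in Tender 1, and at 0% in the other 9, while that of *MBNL2* was at 0% in all 12.

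A coding exon further downstream, of 95 bases, was mostly included in *MBNL1* and mostly skipped in *MBNL2*. In *MBNL1* (chr13:92687026-92687120) it was included at 45.6% to 100%, with a skipped form in 5 libraries. In *MBNL2* (chr11:66614184-66614278) it was included in 5 libraries, at 10.1% to 25.7%, and at 0% in the other 7. At the 5′ end of *MBNL1*, an exon of 1002 bases (chr13:92547506-92548507) had means of 79.1% ± 17.3 (SD, n = 6) in the Tough group and 83.1% ± 13.3 (SD, n = 6) in the Tender group (difference -3.96 points, exact p = 0.649, adjusted p = 0.947), and the difference lay between -8.14 and -0.484 points with 1 library left out. An exon of 120 bases (chr13:92580502-92580621) had 31.1% ± 22.7 (SD, n = 6) in the Tough group and 22.9% ± 12.2 (SD, n = 6) in the Tender group (difference 8.27 points, exact p = 0.437, adjusted p = 0.947). That difference was 0.568 points without Tough 5, 3.70 without Tender 6 and 14.5 without Tough 6. *MBNL1* transcripts began mainly at 2 annotated first exons, with on average 56.5% and 31.5% of the FPKM, and *MBNL2* transcripts began at 1 in all libraries.

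Both RBFOX genes used the 43-base exon and hardly the 40-base exon. In *RBFOX1* the 43-base exon was at 100% and the 40-base exon at 0% in the 10 libraries whose transcripts covered them. In *RBFOX2* the 43-base exon was at 100% in 9 libraries, and the exceptions were Tough 6 at 44.8%, Tender 1 at 82.6% and Tender 6 at 72.2%. The 40-base exon of *RBFOX2* was included in Tough 6, at 55.2%, and in Tender 6, at 27.8%. In these 2 libraries the shares of the 2 exons add up to 100%. The neuronal paralog *RBFOX3* was listed at 0 in 8 libraries and reached at most 0.129 FPKM.

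The 53-base exon of *RBFOX1*, downstream of the 43-base exon, was at 13.3%, 15.6%, 39.1%, 31.9%, 41.6% and 22.2% in Tough 1 to 6 and 0%, 34.3%, 32.1%, 35.7%, 33.4% and 0% in Tender 1 to 6. The groups overlapped, and the 2 values of 0% were Tender 1 and Tender 6, with means of 27.3% ± 12.02 (SD, n = 6) in the Tough group and 22.6% ± 17.5 (SD, n = 6) in the Tender group (difference 4.68 points, exact p = 0.574, adjusted p = 0.947). Without either of these libraries the difference was 0.165 points. *RBFOX2* had an exon of 93 bases (chr5:11875949-11876041), a length that can be removed without a change of frame, which was skipped in part or whole in 6 libraries and had a median share of 89.1%. Its transcripts began at 5 annotated first exons, the most used with 52.5% of the FPKM on average, whereas 1 first exon carried 94.5% in *RBFOX1*.

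*CELF1* had 2 scored exons and *CELF2* none. A partly coding exon of *CELF1*, of 152 bases (chr2:15121369-15121520), was at 54%, 51.1%, 0%, 52.8%, 44% and 31.98% in Tough 1 to 6 and 0%, 36.8%, 23.5%, 49.8%, 41.4% and 39.9% in Tender 1 to 6. Tough 3 and Tender 1 skipped it in all transcripts, and the groups overlapped (difference 7.08 points, exact p = 0.526, adjusted p = 0.947). Without Tender 1 the difference was 0.697 points, and without Tough 3 it was 14.9 points. An untranslated exon of 40 bases (chr2:15116697-15116736) had means of 93.4% ± 10.3 (SD, n = 6) in the Tough group and 77.9% ± 21.2 (SD, n = 6) in the Tender group (difference 15.5 points, exact p = 0.175, adjusted p = 0.947), and Tender 3 was the lowest at 37.2%, without which the difference was 7.38 points. All 13 internal exons of *CELF2* with a share were at 100% in every library that covered them, so none was skipped whole. The share falls only where an intron spans the whole exon, so it does not show a change of splice site. An exon of *CELF2* was assembled with 180 bases in 12 libraries and also with 198 bases in 10 of them.

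Of the 11 annotated internal exons of *RBM20* with a share, 10 were included in every transcript that covered them and 1 in none. That 1 exon (chr14:121211202-121211386) had a share in Tough 6 only. An exon counted as included only with both its annotated splice sites. A single exon of 1079 bases (chr14:121210308-121211386) was assembled in 12 of 12 libraries where the annotation has 6 exons with 10 bases between them. It holds all bases of the exon that was included in none. A second of 651 bases (chr14:121244963-121245613), in 10 libraries, covered 2 annotated exons with 2 bases between them. With both annotated splice sites required, no annotated exon of *RBM20* had both forms in any library.

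**Figure D4:**
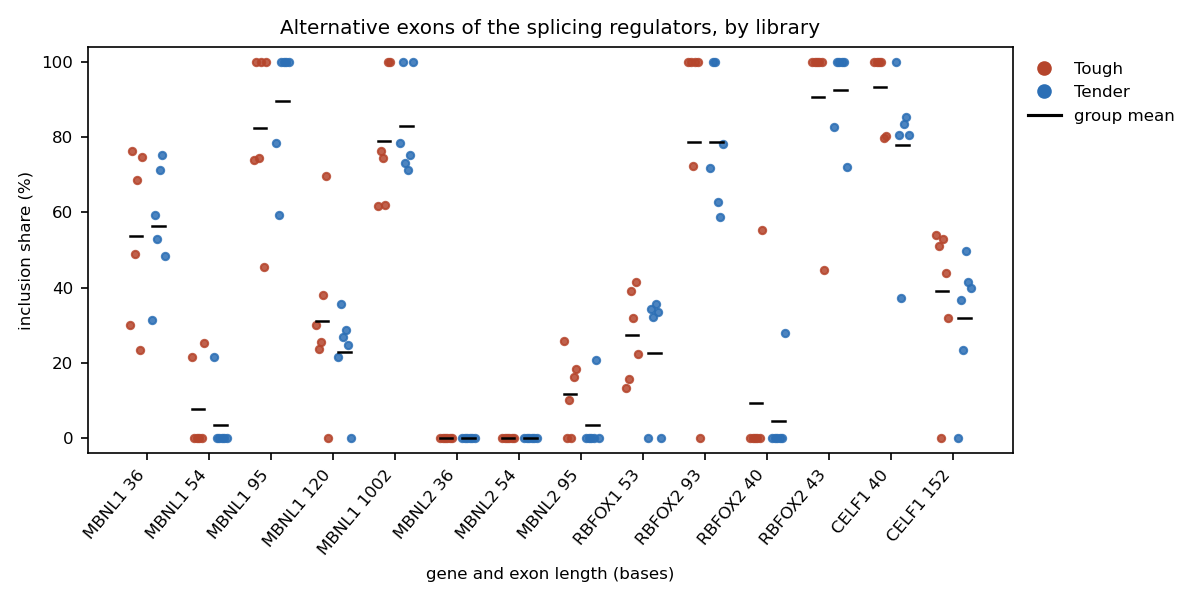
Inclusion share of 14 exons of the splicing regulators in percent, 1 point per animal and a bar for each group mean, labelled by gene and exon length in bases. The 36-base exon is spread from 23.4% to 76.3% in *MBNL1* and lies at 0% in *MBNL2*, and for *RBFOX2* the 43-base exon is mostly at 100% and the 40-base exon mostly at 0%.

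The wider family of splicing regulators was read from a list of 62 other genes. A transcript was assigned to 56 of them and 50 passed the filter. Of these, 0 were called and 1 had an unadjusted p of at most 0.05. Means of the 50 were lower in the Tough group for 36, where 60.3% of all tested genes leaned that way, and higher for 14. Their median log2 fold change was -0.04, beside -0.04 over all tested genes. The exception was *ESRP2*, an epithelial regulator, with a log2 fold change of -2.21 ± 0.75 (SE, unadjusted p = 0.0118, adjusted p = 1.00, limma). It was listed at 0 in 6 libraries and its value per exon base was 0.10, on the other side of 0.

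Among the paralogs of the members, *MBNL3*, *CELF3*, *CELF4*, *CELF5* and *CELF6* were listed at 0 in all 12 libraries. Widely expressed regulators were listed at 0 in some libraries too, *HNRNPD* in 6 and *SRSF1* in 3, although both had a level above 0 per coding base in all 12. *RBPMS*, a smooth muscle regulator, lay between 0.194 and 0.472 FPKM from assigned transcripts and between 0.693 and 1.84 FPKM per coding base. *QKI*, which acts in muscle differentiation, lay between 5.10 and 24.6 FPKM, with a log2 fold change of -0.26 ± 0.31 (SE). *PTBP1*, a repressor of muscle exons, lay between 1.80 and 3.36 FPKM, with -0.03 ± 0.17 (SE). Neither *QKI* nor *PTBP1* was called, and the sign of *PTBP1* changed under both rescalings of the libraries.

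Exons of 53 genes known as targets of these regulators were examined next, since regulators act through the exons of other genes. Both forms were assembled often enough for 43 exons of 23 target genes, of which 93.02% had a length that is a multiple of 3, beside 62.8% of all scored exons. None passed an adjusted p of 0.05 and 2 had an unadjusted exact p of at most 0.05. Over all scored exons that p was reached by 2.39% with the higher share in the Tough group and 2.81% with the higher share in the Tender group. The median difference was 1.19 percentage points over these exons and 0.121 over all scored exons, Tough minus Tender.

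The smallest p belonged to *MYBPC1*, the slow form of myosin-binding protein C. Its exon of 36 bases (chr5:82617187-82617222) was at 0%, 37.8%, 39.6%, 29.1%, 25.96% and 0% in Tough 1 to 6 and 51.9%, 51.8%, 51.04%, 41.4%, 46.05% and 38.4% in Tender 1 to 6. The Tough libraries reached 39.6% and the Tender libraries began at 38.4%, so the groups overlapped over a narrow range, and the means were 22.1% ± 17.9 (SD, n = 6) in the Tough group and 46.8% ± 5.83 (SD, n = 6) in the Tender group (difference -24.7 points, exact p = 0.00433, adjusted p = 0.678). The slow fibre genes above had lower means in the same group, and their part in this difference was not tested. The neighbouring exon of 39 bases had 19.7% ± 16.2 (SD, n = 6) in the Tough group and 36.4% ± 19.8 (SD, n = 6) in the Tender group (difference -16.7 points, exact p = 0.132, adjusted p = 0.947). *CAMK2G*, a calcium-dependent kinase, included its exon of 69 bases at 49.4% ± 6.59 (SD, n = 6) in the Tough group and 64.1% ± 18.6 (SD, n = 6) in the Tender group (difference -14.8 points, exact p = 0.0498, adjusted p = 0.947). Tender 6 stood at 100%, and without it the difference was -7.58 points. *OPA1*, of mitochondrial fusion, included an exon of 111 bases at 49.8% ± 15.9 (SD, n = 6) in the Tough group and 62.9% ± 2.41 (SD, n = 6) in the Tender group (difference -13.05 points, exact p = 0.0606, adjusted p = 0.947), and 5 of 6 Tender libraries lay within 63.6% to 64.3%.

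In the other direction, *KIF13A*, a motor protein, had 76.9% ± 6.53 (SD, n = 6) in the Tough group and 63.98% ± 14.6 (SD, n = 6) in the Tender group for an exon of 42 bases (difference 12.9 points, exact p = 0.0714, adjusted p = 0.947), and a difference of 8.42 points without Tender 3. *ABLIM1*, an actin-binding protein, had 85.5% ± 15.9 (SD, n = 6) in the Tough group and 72.2% ± 8.53 (SD, n = 6) in the Tender group for one of 147 bases (difference 13.3 points, exact p = 0.110, adjusted p = 0.947), and *DTNA*, of the dystrophin complex, 30.96% ± 24.8 (SD, n = 6) in the Tough group and 10% ± 12.5 (SD, n = 6) in the Tender group for an untranslated exon of 156 bases (difference 20.96 points, exact p = 0.108, adjusted p = 0.947). Each of these groups overlapped. Titin, the best known target of RBM20, had 1 scored exon, of 303 bases (chr15:84228407-84228709), covered in 10 libraries, with shares from 33.7% to 100% (exact p = 0.238).

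Exons of further genes known as muscleblind and CELF targets were also read. A 45-base exon of *BIN1*, a protein of the T-tubules, and a 79-base exon of *CLCN1*, the chloride channel, were included in 12 of 12 libraries with no skipped form assembled. Whether this exon of *CLCN1* is the one that the regulators act on was not examined. The 36-base exon of *INSR*, the insulin receptor, was included in 12 of 12 libraries, with a skipped form in 3 and a lowest share of 83.3%. The 132-base and 138-base exons of *MEF2A*, a transcription factor of muscle, which replace each other, averaged 44.8% ± 9.42 and 55.2% ± 9.42 (SD, n = 12). The letters TGCATG, searched on the strand of the gene only, were present in the 200 intron bases after 6 of the 43 scored target exons. That is 13.95%, beside 9.27% of all 1424 scored exons, and the difference was not tested.

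**Figure D5:**
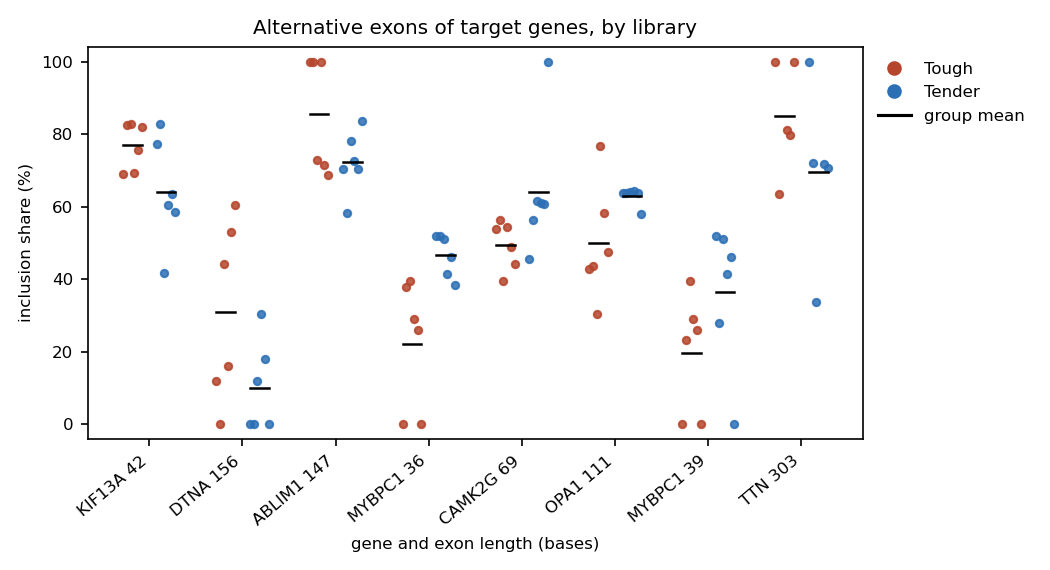
Inclusion share in percent of 8 exons of target genes, taken by smallest p in each direction and the scored exon of *TTN*, 1 point per animal and a bar for each group mean. The groups overlap for all 8 exons, least for the 36-base exon of *MYBPC1*, which is at 0% in 2 Tough libraries and in no Tender library.

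Correlations between the members over the 12 libraries were computed for 28 pairs with a permutation test of 100000 resamples. None passed an adjusted p of 0.05 on either scale, with 0.256 as the smallest for Pearson's r from assigned transcripts and 0.123 per coding base. From assigned transcripts *RBFOX1* and *CELF2* had r = 0.72 (permutation p = 0.00930, adjusted p = 0.256) and rho = 0.63 (permutation p = 0.0314), with r = 0.68 after centring each group and 0.69 without the 2 farthest libraries. Per coding base the same pair had r = -0.22 (permutation p = 0.509, adjusted p = 0.594) and rho = -0.26 (permutation p = 0.418), on the other side of 0. From assigned transcripts *RBM24* and *MBNL1* had r = 0.79 (permutation p = 0.0183, adjusted p = 0.256, rho = 0.46, permutation p = 0.134), and r = 0.26 without Tender 6. Per coding base this pair had r = 0.67 (permutation p = 0.0176, adjusted p = 0.123, rho = 0.46, permutation p = 0.135), 0.59 without Tender 6 and 0.03 without the 2 farthest libraries. On that scale *MBNL1* and *CELF1* had r = 0.71 (permutation p = 0.0112, adjusted p = 0.123, rho = 0.67, permutation p = 0.0198), 0.82 after centring and 0.52 without the 2 farthest libraries. *MBNL2* and *RBFOX1* had r = 0.70 (permutation p = 0.0111, adjusted p = 0.123, rho = 0.67, permutation p = 0.0202) and 0.44 without the 2 farthest.

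No relation of a member with shear force within a group of 6 passed an adjusted p of 0.05 on either scale. Of 16 relations from assigned transcripts tested by all 720 pairings, the smallest exact p was 0.140 and the smallest adjusted p 0.911 for Pearson's r, and 0.839 for Spearman's rho. In the Tough group, from assigned transcripts, *CELF2* had r = -0.69 (exact p = 0.140) and rho = -0.60 (exact p = 0.242), and r = -0.60 without the 2 farthest animals. *RBFOX1* had r = -0.69 (exact p = 0.140) and rho = -0.66 (exact p = 0.175), and r = -0.96 without the 2 farthest animals. With so few animals left r moved widely in either direction. The same removal in the Tough group took *RBFOX2* from 0.36 to 0.96 and *CELF1* from 0.44 to 0.93. It took *RBM20* from 0.21 to -0.60 and *RBM24* from -0.42 to -0.11. Per coding base *CELF2* had r = 0.00542 (exact p = 0.992) and *RBFOX1* r = -0.46 (exact p = 0.358), and the smallest adjusted p of the 16 relations on that scale was 0.884 for Pearson's r.

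The genes whose levels followed each member most closely over the 12 libraries are given as a description, from log2 values of 7332 named genes that averaged 1 FPKM or more and that share the same libraries and their depth. They were *KAT2B* (r = 0.92, and 0.83 per coding base) and *ATPAF1* (r = 0.89, and 0.59 per coding base) for *MBNL1*. For *RBFOX1* they were *SSH1* (r = 0.94, and 0.83 per coding base) and *BIRC3* (r = 0.93, and 0.70 per coding base), and for *RBFOX2* *ATXN2* (r = 0.92, and 0.88 per coding base) and *MBIP* (r = 0.91, and 0.85 per coding base). For *MBNL2* they were *CD59* (r = 0.93, and 0.16 per coding base) and *LMAN1* (r = 0.89, and 0.83 per coding base), and for *RBM20* *ORMDL3* (r = 0.85, and 0.20 per coding base) and *JOSD1* (r = 0.85, and 0.81 per coding base). For *CELF1* they were *SPECC1L* (r = 0.88, and 0.60 per coding base) and *INTS9* (r = 0.87, and 0.44 per coding base), and for *CELF2* *EEF2K* (r = 0.86, and 0.33 per coding base) and *TAB2* (r = 0.86, and -0.06 per coding base). For *RBM24*, whose zero in Tender 6 weighs on r, they were *YWHAG* (r = 0.94, and 0.64 per coding base) and *DHRS7B* (r = 0.92, and 0.38 per coding base). Of these 16 genes, 6 had an r under 0.5 per coding base.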

How the data were processed

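Loin RNA of 12 pigs was sequenced as paired-end libraries, 1 per animal, 6 per group. Per the labels and the methods of the study, reads passed through Trim Galore, TopHat2 2.1.0 aligned them against Sscrofa11.1, and the authors ran Cufflinks 2.2.1 separately for every animal. The deposited files give each assembled transcript an FPKM, a coverage and an isoform score, a relative rank of isoforms that was not used here. They hold no read counts, so precision is given as coverage and no counting interval is possible. The share below which Cufflinks dropped minor isoforms is not given in the sources used here.

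Transcripts were assigned to the NCBI gene on their strand that held at least 50% of their bases, and gene levels were length-weighted sums of FPKM divided by annotated exonic bases. Those averaging over 0.5 FPKM entered limma 3.58.1 in R 4.3.3 on log2(FPKM + 0.5), with a trend, Benjamini-Hochberg adjustment over all tested genes, and no covariate. A call needed an adjusted p up to 0.10, an unadjusted p up to 0.05 and 1.5-fold. Fold changes on this scale understate those of low genes. Other tests were two-sided and by permutation, exact over 924 splits (groups), 4096 sign patterns (order) or 720 pairings (shear force), in Python 3.11.15 with numpy 2.4.6. Inclusion of an exon was the FPKM of transcripts with both its splice sites over these and those whose intron spans it, scored where both forms were assembled in at least 6 libraries. The code was tested on simulated data.

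The members and gene lists were chosen with earlier results of these data known. Named were all members, their 2 most correlated genes, listed regulators with p of at most 0.05 and set paralogs, all scored exons of the members, and up to 4 target exons in each direction by p with those of *TTN*. Of these, 1 target exon is not reported here. The levels per coding base, the unannotated exons, the member exons that were not scored and the exons of *MEF2A*, *BIN1*, *CLCN1* and *INSR* were chosen after the data were seen. Alternatives covered pseudocounts, filters, scalings, gene levels, robust and weighted fits, a replicate block, exon rules and each library left out. Nothing in the labels ties libraries to a lane or fattening batch.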

Additional observations from a re-analysis of the deposited data

Results flagged for a closer look

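In 7 of 46 groups of 6 libraries examined, 1 library stood apart from the other 5 beyond Dixon's critical value for its gap divided by the range of the group, where chance flags about 1 in 20 independent groups. Tender 4 was that library in 4 of the 7. The groups reuse the same libraries over genes and scales, so the flags are not independent and their number cannot be set against that rate. *RBFOX1* from assigned transcripts reached 6.46 FPKM there against 3.31 to 4.03 FPKM elsewhere in the group (gap over range 0.772), and per coding base at 10.7 FPKM against 4.86 to 6.85 FPKM (0.659). *RBFOX2* from assigned transcripts was at 2.38 FPKM against 0.704 to 1.204 FPKM (0.701), and *MBNL2* per coding base at 10.7 FPKM against 3.11 to 5.60 FPKM (0.670). Tender 4 also had the lowest coverage per FPKM and the largest scaling factor of the 12 libraries, and their part in these values was not tested.

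*MBNL1* from assigned transcripts was at 28.1 FPKM in Tough 2 and at 2.55 to 9.43 FPKM in the other Tough libraries (0.730). *RBM20* from assigned transcripts was at 3.46 FPKM in Tender 6, below 4.53 to 4.93 FPKM in the others (0.726). The untranslated 40-base exon of *CELF1* was included at 37.2% in Tender 3 and at 80.5% to 100% in the other Tender libraries (0.689).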

How the results depend on the processing

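No gene was called under any of 27 alternatives by limma or the exact test, with 151 to 637 genes at an unadjusted p of at most 0.05 (224 in the fit reported), the most with array weights. The count was 377 without Tough 1, 383 without Tender 1 and 400 without Tender 4. The smallest adjusted p was 0.1301 with array weights and 0.1007 without Tender 2. No exon of a member or target passed under any exon rule. The replicate numbers did not pair the libraries (r of deviations -0.224 to 0.0216, 0 libraries closest to their own number), and with the replicate block 0 genes were called and 171 had an unadjusted p of at most 0.05. Neighbours in the order of levels that differed were 2, and 1 with the plain sum of transcript FPKM. Correlated pairs of members that passed were 0, but 2 with upper-quartile scaling, 1 per exon base and 1 with the plain sum. Of values with no call, 39 changed sign and the cause was not tested. Log2 fold changes of *PTBP1* were 0.0092 with median-of-ratios scaling, 0.043 with upper-quartile scaling, 0.031 per exon base, 0.46 at a minimum share of 90%, 0.041 with the plain sum, 0.022 with array weights and 0.052 per coding base. *RBM24* had -0.31 per exon base and -0.12 per coding base, *ESRP2* 0.10 per exon base, *CELF1* -0.29 with the plain sum and -0.36 per coding base, and *CELF2* -0.38 and -0.043. *CELF2* per coding base had 0.0094 with median-of-ratios scaling. The mean difference of *RBM24* over *MBNL1* was -1.75 FPKM at a minimum share of 90%, and that of *RBFOX2* over *CELF2* -3.02 FPKM with the plain sum and -2.19 FPKM per coding base. Unweighted shares gave -8.33 points for the 42-base exon of *KIF13A*. With 1 library left out, log2 fold changes ran from -0.10 to 0.045 for *PTBP1*, -0.024 to 0.20 for *MBNL2*, -0.40 to 0.86 for *RBM24* and -0.11 to 0.89 for *MBNL1*. Per coding base they ran from -0.18 to 0.37 for *MBNL1*, -0.31 to 0.090 for *RBM24*, -0.17 to 0.11 for *CELF2* and -0.014 to 0.31 for *MBNL2*. The difference of the 36-base exon of *MBNL1* ran from -7.80 to 3.27 points. Shear force within groups was not recomputed with 1 library left out, since 5 animals remain. Coverage limits what assemblies hold of minor isoforms, and the number of animals limits the precision of all tests.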
